A study of Mus musculus with 12 samples.

Results

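Casp9 and Bcl2l13 are the genes described here, with every exon bin that carries their names in the deposited tables. An exon bin is a non-overlapping piece of the exons of a gene model. Rows were taken by the gene column and by the model name that precedes the bin number, and repeated rows were dropped. Casp9 had 11 bins and Bcl2l13 had 10, which together are 21 of the 925 bins and 2 of the 58 gene models in each of the 6 tables.

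The study mixed sequencing reads on a computer to test how well changes in splicing are found. The RNA of the mouse cell line D1 was mixed with ERCC control RNA and made into unstranded Illumina TruSeq libraries, which start from poly(A)-selected RNA. In 6 samples the background reads came from 1000 ng of total RNA, and in the other 6 samples from 100 ng. Each background received reads of listed transcripts, drawn from 20M, 40M or 80M reads (M, 1e6 reads) of a NuGENv2 library of 2 ng RNA or of a TruSeq library of 100 ng RNA, and also synthetic reads with uniform coverage. Each of the 12 samples had 5 replicate columns, and the labels do not say whether these came from separate cultures, so a p-value here measures only the spread among these columns. The Casp9 transcript uc008vpi.1 was on the synthetic list of the 1000 ng background only. For Bcl2l13, uc009dnu.1 was on the synthetic list of the 1000 ng background and uc009dns.1 on that of the 100 ng background. All 3 were on the list that the labels describe as having a complex background of isoforms. Neither gene was on a list of kit reads.

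Casp9 encodes caspase-9, the initiator protease of mitochondrial apoptosis. When cytochrome c leaves the mitochondrion it assembles with Apaf1 into the apoptosome, which activates caspase-9, and this cleaves the executioner caspases. Bcl2l13, also called Bcl-rambo, encodes a Bcl-2 family protein of the outer mitochondrial membrane that can promote apoptosis and also binds LC3 family proteins as a receptor for mitophagy. In human cells a short caspase-9 isoform that lacks part of the protease domain acts as an inhibitor of the full-length enzyme.

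In the mouse genome build NCBIM37 (UCSC mm9), Casp9 lies on the plus strand at chr4:141349527-141371891 and Bcl2l13 on the plus strand at chr6:120786248-120842860. The tables give no bin coordinates. Bin lengths here are those inferred from the deposited values plus 1 base. Bins were placed by comparing their lengths, in order, with the exon boundaries of all GENCODE transcripts of each gene. Exon numbers are those of Casp9-001, which has 9 exons and 1362 coding bases, and Bcl2l13-201, which has 7 exons and 1302 coding bases. This placed 9 of the 11 Casp9 bins and 8 of the 10 Bcl2l13 bins. For Casp9, E001 is exon 1 and partly coding, E002 is coding exon 2, and E003 is a noncoding extension of exon 2 that lies outside Casp9-001. E004 to E007 are coding exons 3 to 6, E009 is exon 7 and E010 is exon 8. E008, of 1748 bases, matched no exon, and E011, of 2381 bases, was 1 base short of exon 9, which has 2382. For Bcl2l13, E001 is the noncoding exon 1, E002 and E003 together make exon 2, and E004 and E005 are exons 3 and 4. E007 is exon 5, E009 is exon 6 and E010 is exon 7, which holds 711 coding bases among 6165. E006, of 2138 bases, and E008, of 67 bases, matched no exon. E002 and E003 were placed by their summed length. The 3 listed transcripts could not be assigned to bins, because the annotation used does not hold their structures.

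The sequences of the bins on which the Casp9 results turn are printed 5′ to 3′ on the plus strand. E004 at chr4:141359736-141359770 had the most reads per base. E007 at chr4:141363030-141363177 holds the codons of the active-site pentapeptide with the catalytic cysteine, whose 15 bases are in capitals. E009 at chr4:141367454-141367633 and E010 at chr4:141368122-141368231 had shares of the gene's reads that, together with E011, varied most between columns relative to their means.
Casp9 E004: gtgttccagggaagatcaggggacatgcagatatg
Casp9 E007: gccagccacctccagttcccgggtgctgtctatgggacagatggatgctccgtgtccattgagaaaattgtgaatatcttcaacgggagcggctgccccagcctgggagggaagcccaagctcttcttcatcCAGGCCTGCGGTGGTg
Casp9 E009: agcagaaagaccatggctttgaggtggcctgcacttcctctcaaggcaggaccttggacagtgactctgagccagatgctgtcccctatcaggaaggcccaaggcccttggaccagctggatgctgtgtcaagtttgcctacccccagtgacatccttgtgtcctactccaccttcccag
Casp9 E010: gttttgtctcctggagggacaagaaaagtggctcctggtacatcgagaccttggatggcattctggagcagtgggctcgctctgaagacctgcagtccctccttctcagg

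For Bcl2l13, E007 at chr6:120820784-120820853 had the most reads per base. E005 at chr6:120815586-120815742 and E009 at chr6:120826221-120826364 are the placed bins next to the unplaced E006 and E008 in bin order. These sequences are also on the plus strand, with no capitals because no site in them is named.
Bcl2l13 E005: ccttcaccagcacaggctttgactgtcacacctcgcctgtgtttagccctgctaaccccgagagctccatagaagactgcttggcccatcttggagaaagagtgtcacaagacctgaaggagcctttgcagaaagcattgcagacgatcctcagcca
Bcl2l13 E007: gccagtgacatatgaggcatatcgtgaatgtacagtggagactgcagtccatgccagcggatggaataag
Bcl2l13 E009: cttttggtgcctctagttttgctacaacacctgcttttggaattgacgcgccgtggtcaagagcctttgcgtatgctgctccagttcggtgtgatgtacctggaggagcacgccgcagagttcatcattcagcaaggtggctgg

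Values were deposited as reads per base of a bin, except that the fifth 100 ng column had also been divided by a number read as its library total in M reads, 16.02 in the table with 20M NuGENv2 reads. Reads in bins ranged from 347941 to 558561 per column in the 1000 ng columns and from 237258 to 417019 in the 100 ng columns of that table. Both genes had the same reads in all 11 and all 10 bins of every other table, apart from the 100 ng columns with 20M TruSeq reads. The tables are therefore not separate measurements of these genes, and the table with 20M NuGENv2 reads is used below unless another is named. FPKM equivalents are reads per kilobase and per M reads, with columns scaled by median-of-ratios size factors. Background reads and synthetic reads of a gene cannot be told apart in these values, nor can fewer expressing cells from less RNA per cell.

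Casp9 varied widely between replicate columns of both backgrounds, and no difference between the backgrounds passed the test. The gene had 28598, 5128, 12559, 30355 and 27369 reads in replicates 1 to 5 of the 1000 ng background, against 6367, 19557, 17446, 28395 and 19693 reads in the 100 ng columns. As FPKM equivalents these were 153, 15.4, 74.3, 159 and 179 in the 1000 ng columns, against 52.4, 178, 70.8, 134 and 179 in the 100 ng columns. The 1000 ng background held the lowest column, replicate 2, and all 5 columns of the 100 ng background lay within the range of the 1000 ng columns. Casp9 averaged 116 ± 68.99 FPKM equivalents in the 1000 ng columns and 123 ± 59.1 in the 100 ng columns (SD, n = 5 each).

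The log2 fold change of Casp9, 1000 ng over 100 ng on log2(FPKM equivalent + 1), was −0.32 (SE 0.69, 95% interval −1.88 to 1.24, adjusted p = 0.80 by limma with Benjamini-Hochberg adjustment over 58 models). Of the 58 model totals 5.17% passed in either direction, at the threshold of 0.05 used throughout. The interval leaves room for large differences in either direction. Without replicate 2 of the 1000 ng background the fold change turned to 0.29 (adjusted p = 0.74). The SD of log2(FPKM equivalent + 1) between replicates was 1.45 in the 1000 ng columns and 0.80 in the 100 ng columns, against medians over all models of 0.13 and 0.14. By this spread Casp9 ranked 3 of 58 in the 1000 ng columns and 7 of 58 in the 100 ng columns.

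Bcl2l13 was a low and steady gene beside it. It had 893, 1639, 765, 961 and 694 reads in replicates 1 to 5 of the 1000 ng background, against 621, 653, 1202, 1058 and 473 reads in the 100 ng columns. As FPKM equivalents these were 3.605, 3.72, 3.41, 3.79 and 3.43 in the 1000 ng columns, against 3.85, 4.49, 3.68, 3.78 and 3.23 in the 100 ng columns. The 5 columns of the 1000 ng background all lay within the range of the 100 ng columns. Bcl2l13 averaged 3.59 ± 0.17 FPKM equivalents in the 1000 ng columns and 3.81 ± 0.45 in the 100 ng columns (SD, n = 5 each). The log2 fold change was −0.06 (SE 0.07, 95% interval −0.21 to 0.09, limma adjusted p = 0.63). The SD of its log2(FPKM equivalent + 1) was 0.05 in the 1000 ng columns, rank 55 of 58, and 0.13 in the 100 ng columns, rank 31 of 58. Adding 1 shrinks this SD for a gene this low, so its rank depends in part on the scale.

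**Figure D1:**
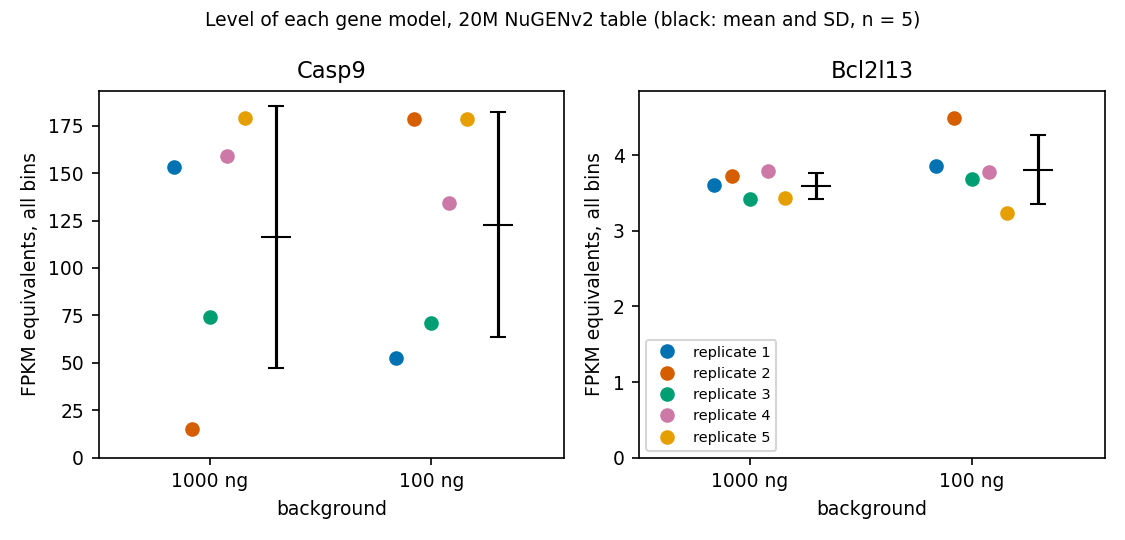
Level of the Casp9 and Bcl2l13 gene models in FPKM equivalents (y axis, from 0) in each replicate of the 1000 ng and 100 ng backgrounds (x axis), table with 20M NuGENv2 reads. Coloured points are replicates and black bars the mean and SD (n = 5); Casp9 runs from 15.4 to 179 in the 1000 ng columns and from 52.4 to 179 in the 100 ng columns, while every Bcl2l13 column lies between 3.23 and 4.49.

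No single bin of Casp9 passed the limma test between the backgrounds, where 1.95% of the 922 tested bins passed. Its 11 bins had log2 fold changes from −0.44 in E008 to 0.13 in E010, with standard errors from 0.64 to 0.80. None had an unadjusted p under 0.05, a mark that 17.8% of all tested bins passed, and an exact permutation test of the same values called 0 of all 922 bins, so its result says nothing of Casp9 in particular. Casp9 did not pass for bin usage either, which asks whether bins of a model change relative to each other (limma diffSplice F test, adjusted p = 1), a test that 27.6% of models passed.

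The 3 Casp9 bins with the most reads per base were E004, E006 and E002, all in the coding exons that lie before the active site. E004 measured 2683, 242, 1239.9, 2942 and 3203 FPKM equivalents in the 1000 ng columns, against 865, 3202, 1296, 2410.3 and 3236 in the 100 ng columns. E006 measured 761, 72.9, 355, 840.4 and 919 FPKM equivalents in the 1000 ng columns, against 254, 919, 369, 689 and 917 in the 100 ng columns. E002 measured 457, 42.5, 213, 504 and 552 FPKM equivalents in the 1000 ng columns, against 152, 555, 219.8, 411 and 547 in the 100 ng columns. All 3 bins followed the gene total, with replicate 2 of the 1000 ng background lowest and the backgrounds overlapping. E004 is 35 bases long, and since the sources used here do not say how reads were counted over bins, the density of bins this short cannot be compared with that of longer ones. The log2 fold changes of E004, E006 and E002 were −0.38, −0.36 and −0.37 (limma adjusted p = 0.87 for each).

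**Figure D2:**
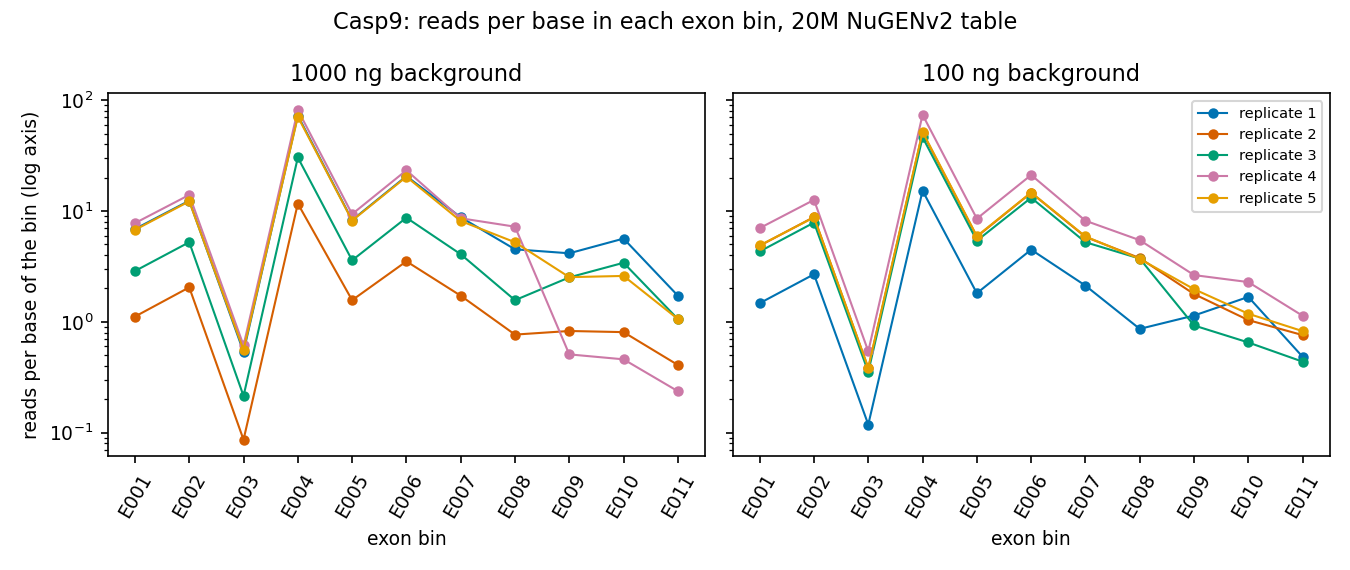
Reads per base (y axis, log scale) in the 11 Casp9 exon bins (x axis, in bin order) for the 5 replicates of the 1000 ng background on the left and of the 100 ng background on the right. Lines join bins of a replicate; replicate 4 of the 1000 ng background is the highest of its panel in E008, at 7.22 reads per base, and the lowest in E009, at 0.508.

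Within Casp9, E001 to E004 and E006 kept nearly fixed proportions in all 10 columns while the last bins did not. Reads in E001 were 0.510 to 0.523 of those in E002 in every column, a coefficient of variation of 0.79%, which is below the smallest counting error of that ratio in any column, 2.29%. The ratios to E002 of E004 and E006 had coefficients of variation of 1.35% and 1.00%, also below their smallest counting errors of 2.32% and 2.57%. The ratios of E003, E005 and E007 varied by 3.04%, 4.32% and 10.4%, against smallest counting errors of 3.85%, 2.80% and 3.11%. The ratio of E008 to E002 varied by 16.4%, and those of E009, E010 and E011 by 53.9%, 78.5% and 54.6%. The counting error is that of independent reads, and the reason for a spread below it was not tested.

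E009 to E011, which come after the active-site exon and E008 in bin order, took 19.1%, 23.5%, 26.7%, 2.32% and 11.9% of Casp9 reads in the 1000 ng columns, against 24.2%, 11.4%, 7.32%, 12.0% and 12.4% in the 100 ng columns. E008 took 27.6%, 26.1%, 21.8%, 41.6% and 33.4% in the 1000 ng columns, against 23.7%, 33.6%, 37.3%, 33.6% and 32.8% in the 100 ng columns. Columns with a small share in E009 to E011 had a large share in E008, most of all replicate 4 of the 1000 ng background. Shares are parts of 1 total and are not independent. E001, E002 and E004 to E007 together took 48.2% to 53.6% in the 1000 ng columns and 49.8% to 52.9% in the 100 ng columns. A small share in E009 to E011 therefore leaves a large one for E008. The grouping of E009 to E011 was chosen after the values were seen, so it has no test.

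The largest differences in mean share between the backgrounds were those of E011 and E008, and both were smaller than the spread between replicates. E011 took 14.3%, 18.9%, 20.1%, 1.85% and 9.23% of Casp9 reads in the 1000 ng columns, against 18.1%, 9.24%, 5.96%, 9.51% and 9.96% in the 100 ng columns. Its mean share was 12.9% ± 7.51 in the 1000 ng columns and 10.5% ± 4.50 in the 100 ng columns (SD, n = 5 each; exact permutation p = 0.54, two-sided, adjusted p = 0.79 over all bins). For E008 the mean share was 30.1% ± 7.64 in the 1000 ng columns and 32.2% ± 5.06 in the 100 ng columns (exact permutation p = 0.62, adjusted p = 0.83). In both bins replicate 4 of the 1000 ng background was the extreme column, lowest for E011 and highest for E008, and the other columns of the backgrounds were interleaved. As levels, E011 measured 63.5, 8.46, 43.2, 8.52 and 47.8 FPKM equivalents in the 1000 ng columns, against 27.4, 47.7, 12.2, 36.9 and 51.5 in the 100 ng columns. E008 measured 166, 15.9, 63.9, 260.2 and 236 FPKM equivalents in the 1000 ng columns, against 48.9, 236, 104, 178 and 231 in the 100 ng columns. E007, with the active-site codons, took 4.55% ± 0.31 of Casp9 reads in the 1000 ng columns and 4.47% ± 0.25 in the 100 ng columns (exact permutation p = 0.67, adjusted p = 0.87).

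Of the 923 bins with reads 0% passed the adjusted exact permutation test of shares, whose smallest p is 0.00794 with 5 columns a side. Unadjusted, 19.7% of them were under 0.05, and none of the 11 Casp9 bins was. Shares of the backgrounds did not overlap in 8.23% of bins, and overlapped in all 11 Casp9 bins and all 10 Bcl2l13 bins. The same held for levels in FPKM equivalents, which did not overlap in 5.97% of tested bins.

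**Figure D3:**
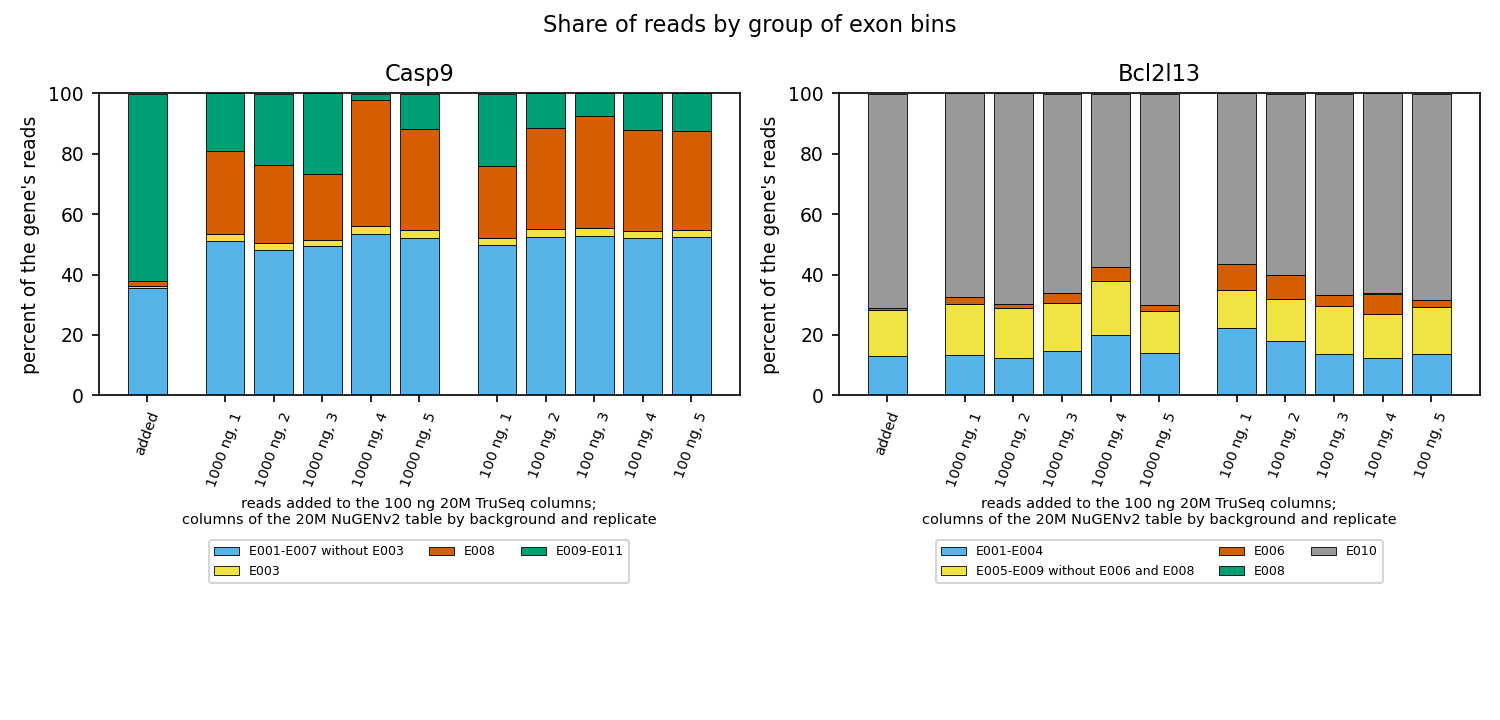
Share of each gene's reads (y axis, percent) by group of exon bins, for the reads added to the 100 ng columns with 20M TruSeq reads and for the 5 replicates of the 1000 ng and of the 100 ng background (x axis). In Casp9 the added reads have 62.2% in E009 to E011 and 1.43% in E008, unlike any background column; in Bcl2l13 E010 holds 71.0% of added reads and 56.4% to 70.2% of background reads.

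In Bcl2l13, too, 0 of 10 bins passed the limma test, which 1.95% of the 922 tested bins passed. Only 1 bin, E006, had an unadjusted p under 0.05, a mark that 17.8% of all tested bins passed. Log2 fold changes ran from −0.45 in E006 to 0.16 in E007. Bin usage did not pass either (limma diffSplice F test, adjusted p = 1), a test that 27.6% of models passed. E008 had 0 or 1 read in every column, so nothing can be said of its level beyond that it was at the limit of this depth.

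The 3 Bcl2l13 bins with the most reads per base were E007, E003 and E002, in coding exon 5 and the exon that holds the start codon. These bins are 70, 65 and 96 bases long. As for Casp9 E004, the density of short bins cannot be compared with that of longer ones. E007 measured 21.9, 21.9, 20.1, 26.6 and 17.6 FPKM equivalents in the 1000 ng columns, against 18.9, 21.9, 19.9, 20.3 and 15.4 in the 100 ng columns. E003 measured 16.7, 13.6, 16.5, 30.9 and 17.6 FPKM equivalents in the 1000 ng columns, against 28.3, 29.4, 17.9, 15.3 and 15.6 in the 100 ng columns. E002 measured 13.96, 12.9, 15.01, 22.7 and 12.3 FPKM equivalents in the 1000 ng columns, against 26.2, 23.1, 13.2, 12.3 and 11.8 in the 100 ng columns. E002 and E003 were high together in replicate 4 of the 1000 ng background and in replicates 1 and 2 of the 100 ng background, and the backgrounds overlapped in all 3 bins. The log2 fold changes of E007, E003 and E002 were 0.16, −0.15 and −0.12 (limma adjusted p = 0.67, 0.86 and 0.89). These bins had 16 to 73 reads a column, so their values are less precise than those of Casp9.

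E006, the long bin that matched no annotated exon, had the largest difference between the backgrounds in Bcl2l13, and it did not pass after adjustment. It had 22, 21, 26, 45 and 14 reads in the 1000 ng columns, against 54, 52, 45, 70 and 11 reads in the 100 ng columns. As FPKM equivalents these were 0.379, 0.204, 0.496, 0.758 and 0.295 in the 1000 ng columns, against 1.43, 1.53, 0.589, 1.07 and 0.321 in the 100 ng columns. Replicates 1, 2 and 4 of the 100 ng background were above all 1000 ng columns, while replicates 3 and 5 lay among them. E006 averaged 0.426 ± 0.214 FPKM equivalents in the 1000 ng columns and 0.987 ± 0.524 in the 100 ng columns (SD, n = 5 each). Its log2 fold change was −0.45 (SE 0.20, 95% interval −0.89 to −0.01, limma adjusted p = 0.27), on a scale where adding 1 shrinks the change of values this low.

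As a share of Bcl2l13 reads, E006 took 2.46%, 1.28%, 3.40%, 4.68% and 2.02% in the 1000 ng columns, against 8.70%, 7.96%, 3.74%, 6.62% and 2.33% in the 100 ng columns. The mean share was 2.77% ± 1.32 in the 1000 ng columns and 5.87% ± 2.74 in the 100 ng columns, a difference of −3.10 percentage points (SD, n = 5 each; exact permutation p = 0.063, two-sided, adjusted p = 0.28). The 100 ng columns thus reached from within the range of the 1000 ng columns to well above it. The share of E010, the last exon with most of its bases past the stop codon, was 67.4%, 69.8%, 66.0%, 57.4% and 70.2% in the 1000 ng columns, against 56.4%, 60.03%, 66.7%, 66.3% and 68.3% in the 100 ng columns. The means of E010 were 66.2% ± 5.17 in the 1000 ng columns and 63.5% ± 5.10 in the 100 ng columns (exact permutation p = 0.40, adjusted p = 0.69). E010 was lowest in replicate 1 of the 100 ng background and replicate 4 of the 1000 ng background, the columns with the highest shares of E002 and E003. As a level, E010 measured 3.598, 3.85, 3.34, 3.22 and 3.56 FPKM equivalents in the 1000 ng columns, against 3.22, 3.995, 3.64, 3.70 and 3.27 in the 100 ng columns. The share of 1 of the 10 bins, E007, had an unadjusted exact permutation p under 0.05, a mark that 19.7% of all bins passed. E007 took 4.54% ± 0.51 of Bcl2l13 reads in the 1000 ng columns and 3.82% ± 0.23 in the 100 ng columns (exact permutation p = 0.024, adjusted p = 0.15).

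**Figure D4:**
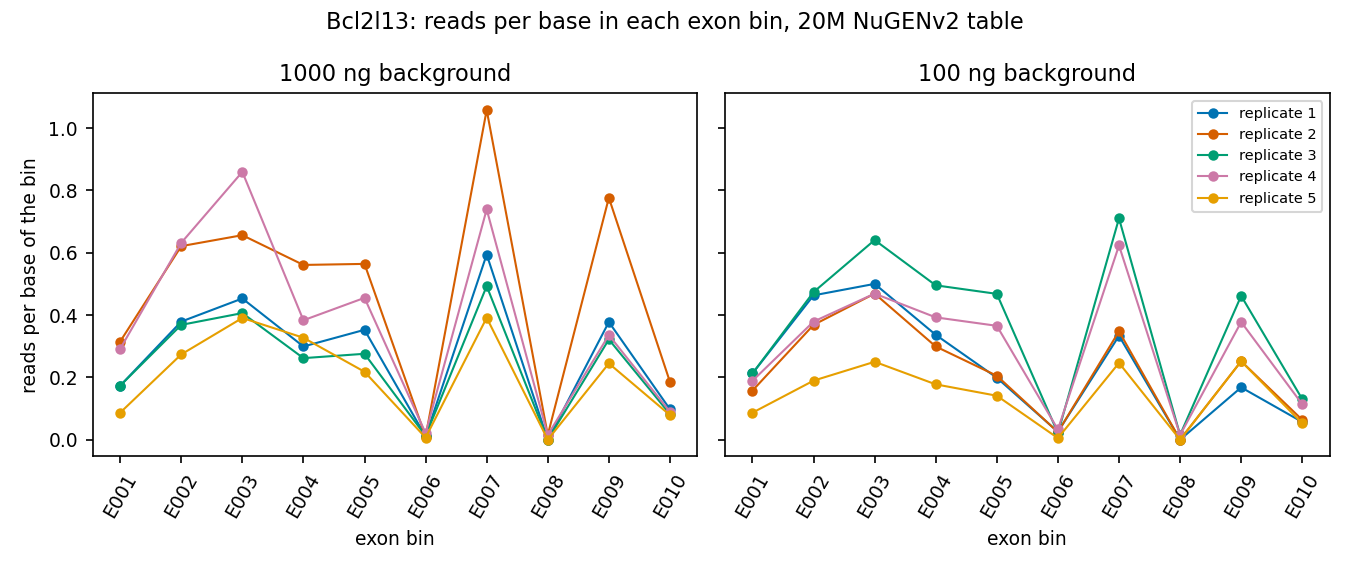
Reads per base (y axis, linear) in the 10 Bcl2l13 exon bins (x axis, in bin order) for the 5 replicates of the 1000 ng background on the left and of the 100 ng background on the right. E007 reaches 1.06 reads per base in replicate 2 of the 1000 ng background, while E006 stays at or under 0.0328 and E008 at or under 0.0152 in all columns.

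In the table with 20M TruSeq reads every 100 ng column held more Casp9 and Bcl2l13 reads than in the table with 20M NuGENv2 reads, by the same number in each of the 5 replicates. The 1000 ng columns of the same table had gained no read of either gene, and 822 of their 925 bins were unchanged. Over all models 864540 reads were added in 916 bins of each 100 ng replicate, and the number read as the library total of 100 ng replicate 5 was larger by 184.9M, or 11.5 times its value in the table with 20M NuGENv2 reads. Casp9 had 9231, 22421, 20310, 31259 and 22557 reads in these 5 columns, against 6367, 19557, 17446, 28395 and 19693 in the 100 ng columns with 20M NuGENv2 reads. The difference was 2864 reads in every replicate, so the replicates kept their order. Bcl2l13 had 5549, 5581, 6130, 5986 and 5401 reads in the columns with 20M TruSeq reads, against 621, 653, 1202, 1058 and 473 with 20M NuGENv2 reads, a difference of 4928 reads in every replicate. The added reads held more of Bcl2l13 than of Casp9, whereas every column of both tables held more of Casp9. Per base of the model, the added reads were 0.416 for Casp9 and 0.540 for Bcl2l13.

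Relative to the reads of replicate 5, the added reads came to 0.145 for Casp9 and 10.4 for Bcl2l13. Over the 58 model totals the median was 8.52, and Casp9 ranked 6 from the lowest and Bcl2l13 ranked 37. The median over bins was 11.4 in models with listed kit reads and 3.73 in models on a synthetic list only, to which both genes belong. With replicate 1 as the denominator the value of Casp9 was 0.45, and with replicate 3 that of Bcl2l13 was 4.10. These ratios have no test, since the columns share their background reads.

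**Figure D5:**
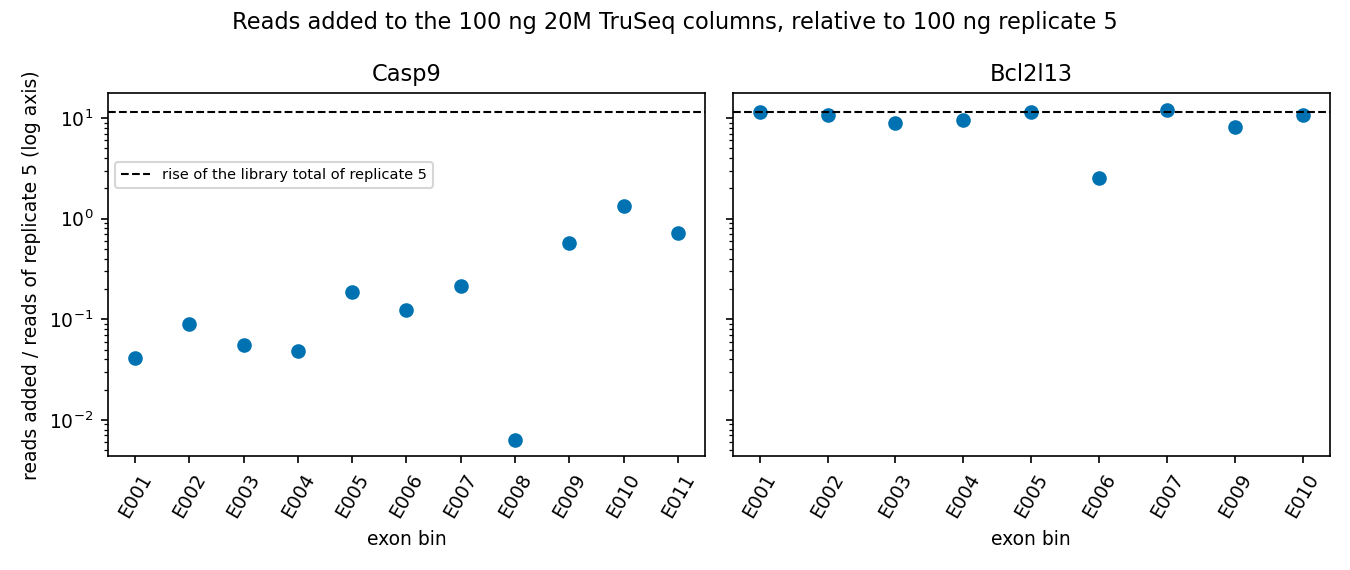
Reads added to the 100 ng columns with 20M TruSeq reads divided by the reads of 100 ng replicate 5 with 20M NuGENv2 reads (y axis, log scale) for each exon bin with reads in that replicate (x axis). The dashed line is the same ratio for the library total, 11.5; Bcl2l13 bins other than E006 lie between 8.14 and 12.1, and Casp9 bins between 0.00635 and 1.35.

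The added reads were spread over Casp9 in another pattern than the reads of the background columns. E011 received 1404 of the 2864 added reads, or 49.0% (exact Clopper-Pearson 95% interval 47.2 to 50.9, counting error only, as for all such intervals here), against 9.96% of the reads of replicate 5. E009 received 204 reads and E010 received 174, and E009 to E011 together held 62.2% of the added reads. E008 received 41 reads, or 1.43% (interval 1.03 to 1.94), against 32.8% of the reads of replicate 5. E008 was therefore the Casp9 bin with the smallest ratio of added to replicate 5 reads, 0.00635, and E010 the one with the largest, 1.35.

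E001 received 75 added reads, E002 received 314, E003 received 27, E004 received 85, E005 received 195, E006 received 161 and E007 received 184. In the added reads E001 had 0.239 of the reads of E002, below the 0.510 to 0.523 of every column of the table with 20M NuGENv2 reads. E011 had 4.47 times the reads of E002 in the added reads, above its largest value in those columns, 1.21.

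In Bcl2l13 the added reads fell mostly in E010, as the background reads did, and E006 held less of them than in any background column. E010 received 3501 of the 4928 added reads, or 71.0% (interval 69.8 to 72.3), against 68.3% of the reads of replicate 5. E006 received 28 reads, or 0.57% (interval 0.38 to 0.82), below its share in all 10 columns of the table with 20M NuGENv2 reads, where the lowest was 1.28%. E009 received 293 reads, E005 received 255, E007 received 205, E002 received 193, E004 received 183, E003 received 142 and E001 received 126. E008 received 2 reads. The ratio of added to replicate 5 reads was 2.55 in E006 and ran from 8.14 in E009 to 12.1 in E007 in the other bins with reads in that replicate.

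In the table with 20M TruSeq reads Casp9 was called higher in the 1000 ng columns, at 91.1 ± 54.1 FPKM equivalents against 14.6 ± 5.20 in the 100 ng columns (SD, n = 5 each; log2 fold change 2.24, SE 0.66, limma adjusted p = 0.011), a call that 36.2% of model totals had in that direction. The Casp9 reads of the 1000 ng columns were the same as in every other table, and the 100 ng columns only gained reads. Size factors of the 1000 ng columns were 0.33 to 0.73 with 20M TruSeq reads, against 0.89 to 1.94 with 20M NuGENv2 reads. Those of the 100 ng columns were 2.33 to 2.59, against 0.64 to 1.44. The shares of the added reads and of the column scale in this call were not tested. Each 100 ng column held the same 2864 added reads, so the p-values here do not measure any spread of those reads. On the values as deposited the log2 fold change was 0.32 (adjusted p = 0.58), and without the fifth 100 ng column it turned to −0.06 (adjusted p = 0.90). These scales also shift all models: the median log2 fold change over model totals was 0.01 on the scaled values, −0.49 as deposited and −0.68 without the fifth column. Relative to that median Casp9 was higher in the 1000 ng columns on each of these scales, by 2.23, 0.82 and 0.62. By bins, 10 of 11 were called higher in the 1000 ng columns, where 32.6% of all tested bins were, and E010 was not (adjusted p = 0.061).

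Bcl2l13 was lower in the 1000 ng columns of that table, at 2.81 ± 0.12 FPKM equivalents against 3.00 ± 0.03 in the 100 ng columns (log2 fold change −0.07, limma adjusted p = 0.030), a direction called for 43.1% of model totals. Every 100 ng column there held the same 4928 added reads, against a mean of 801 Bcl2l13 reads without them. The test takes these columns as separate replicates on every scale, so its p-values do not measure any spread of the added reads. On 5 other scales, chosen after seeing the data, the log2 fold change was larger in size. It was −0.42 as deposited (limma adjusted p = 0.066) and −0.56 as deposited without the fifth 100 ng column (adjusted p = 6.6e-07). It was −0.45 after median-centring (adjusted p = 0.00019), −0.25 after quantile normalization (adjusted p = 0.0014) and −0.52 with size factors from models on no kit-read list (adjusted p = 3e-04). The median of all model totals also moved between scales, and relative to it Bcl2l13 was at −0.08 on the scaled values, 0.07 as deposited, 0.12 without the fifth column, −0.06 after median-centring, 0.04 after quantile normalization and −0.06 with the last size factors. Bcl2l13 was thus lower in the 1000 ng columns on all 6 scales, whereas its direction relative to the other models depended on the scale. The 6 scales hold the same added reads, so their agreement is not separate evidence. Those 4928 reads alone exceeded the Bcl2l13 reads of every 1000 ng column, at most 1639. As deposited without the fifth column, where columns are not scaled, the direction was therefore fixed in advance. Of the 10 Bcl2l13 bins only E010 was called on the scaled values (limma adjusted p = 0.025), lower in the 1000 ng columns. Of all tested bins 29.7% were called in that direction. The 100 ng columns of that table held 1101798 to 1281559 reads in bins.

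Few other genes of the pathways were in the tables. Of 35 listed genes of mitochondrial apoptosis only Birc3 was present, an inhibitor of apoptosis protein with ubiquitin ligase activity, and it was not called. Birc3 measured 4.78 ± 0.26 FPKM equivalents in the 1000 ng columns and 4.53 ± 0.39 in the 100 ng columns (SD, n = 5 each; limma adjusted p = 0.56). Of 22 listed genes of mitophagy and autophagy only Atg16l1 was present, a subunit of the complex that attaches LC3 to membranes, at 23.0 ± 11.004 FPKM equivalents in the 1000 ng columns and 20.5 ± 6.79 in the 100 ng columns (limma adjusted p = 0.89). The labels give no cell type for D1. Of 20 dendritic cell or myeloid genes 4 were in the tables, of which Myadm was called higher in the 1000 ng columns, a call made for 1.72% of all model totals, and Mgl2 in the 100 ng columns, a call made for 3.45%. Sirpa (log2 fold change −0.19, limma adjusted p = 0.054) and Il18rap (0.06, limma adjusted p = 0.61) were not called. None of 11 genes of other cell types was in the tables. The tables hold only 58 gene models, so the absence of a gene from them says nothing of its expression in D1.

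The models whose log2 totals were most like Casp9 over the 10 columns were Tmem62 (Pearson r = 0.70), Prmt10 (0.68) and AK005305 (0.62). For Bcl2l13 they were Trm1l (0.68), Rcbtb2 (0.59) and Gas5 (0.57). Between Casp9 and Bcl2l13 the correlation was −0.02. These values describe 10 columns that share their scaling, with no test.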

How the data were processed

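Read coverage of exon bins was given for 12 samples in 6 tables of 1744 rows, 818 of them repeated. Per the submitters' processing notes, STAR, Cuffdiff and the mm9 build were used; the counting of reads over bins is not stated. The deposited signal (coverage) was whole reads divided by a bin length that is 1 base below the lengths printed here. The fifth 100 ng column had also been divided by its library total. Bin lengths and this divisor were inferred from the values, and 100% of values then came out whole within 0.001 reads. For 9 columns that is by construction. 1 bin with non-finite values was dropped.

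Columns were scaled by the median of ratios, with the level set by the library total of the fifth column. Models were fitted with limma 3.58.1 in R 4.3.3 on log2(FPKM equivalent + 1), two-sided, with Benjamini-Hochberg adjustment over all 922 tested bins or 58 model totals and a threshold of 0.05. A mean of at least 1 was required of bins outside listed models. Model totals were summed reads over summed length. Bin usage was tested with diffSplice, and bin shares with an exact permutation test. The fit was tested on simulated data. Bins were matched to GENCODE vM1 exons by the inferred length plus 1 base, and sequences were read from NCBIM37.

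The genes and lists were chosen with earlier results of these data known. Values in every column were given for the totals, the 3 bins per gene with most reads per base and the 2 with the largest difference in share. Correlations of same-numbered columns were −0.03, −0.08, −0.38, −0.11 and 0.09, which gave no sign that the numbers pair the columns. Low correlations cannot exclude a shared culture or batch, and the labels do not say.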

Additional observations from a re-analysis of the deposited data

Results flagged for a closer look

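A column was singled out where its distance to the nearest other column of its background, divided by the range of the 5, was over 0.71. This was so in 8 of 88 groups of 5 columns checked, where chance alone gives about 1 in 20.

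In 100 ng replicate 1 the shares of Casp9 reads in E001, E002, E004 and E006 were low, at 8.65%, 16.8%, 8.15% and 6.27%, where the nearest other 100 ng columns had 9.24%, 17.7%, 8.86% and 6.63%. The shares of E007 and E010 were high there, at 4.90% and 2.87%, where the nearest others had 4.41% and 0.88%. These 6 shares are parts of 1 total and are not independent.

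In 1000 ng replicate 4, Bcl2l13 was high in E002, at 22.7 FPKM equivalents where the nearest other 1000 ng column had 15.01, and in E003, at 30.9 where the nearest had 17.6. Both bins belong to exon 2.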

How the results depend on the processing

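The log2 fold change of Casp9, 1000 ng over 100 ng, passed no threshold outside the table with 20M TruSeq reads. It turned to 0.42 on values as deposited, 0.12 when the fifth 100 ng column was also left out, and 2.24 in the table with 20M TruSeq reads. Leaving out 1 column gave −0.58 to 0.29, which was positive only without 1000 ng replicate 2. That of Bcl2l13 was 0.041 and 0.015 on the same deposited values, −0.070 and past the threshold with 20M TruSeq reads, 0.0017 with 80M TruSeq reads, and −0.11 to −0.01 with 1 column left out. With 20M TruSeq reads 10 Casp9 bins and 1 Bcl2l13 bin were called. The added reads were the same in each 100 ng column there, so tests in that table do not measure any spread of them. Other scales there, chosen after seeing the data, gave Casp9 −0.059 as deposited without the fifth column and 1.53 to 1.70 for median-centring, quantile normalization and size factors from models on no kit-read list. Bins called over all models, 18 in the main table, were 0 and 1 on the deposited values with and without the fifth column, 7 after quantile normalization, 0 by exact permutation, 5 to 24 with 1 column left out, and 46, 113, 575, 156 and 197 in the tables with 40M and 80M NuGENv2 and 20M, 40M and 80M TruSeq reads. A replicate block was also fitted, although same-numbered columns showed no sign of pairing. With it Casp9 had −0.32 (limma adjusted p = 0.84), Bcl2l13 −0.06 (adjusted p = 0.64) and 1 bin was called in all. Added reads over those of a replicate were 0.45 for Casp9 with replicate 1, and 7.55, 4.10 and 4.66 for Bcl2l13 with replicates 2, 3 and 4. The cause of these shifts was not tested. Bin usage of both genes passed under none of the settings run, exact permutation aside, which was not run for it. The median log2 fold change of all bins was 0.19 as deposited and 0.0012 after scaling. Depth limits what can be said of Bcl2l13 bins such as E008, with 0 or 1 read a column, E001, with 11 to 40, and E006, with 11 to 70.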
